A study of Rattus norvegicus with 17 samples.

Results

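Hippocampal transcripts of young rats whose dams drank ethanol in pregnancy (ET) were compared with those of pair-fed controls (PF), with the questions of which genes were higher in ET and whether whole pathways shifted among well-detected genes. The comparison used 9 of the 17 libraries of the series, ET replicates 1, 3, 4 and 5 against PF replicates 1, 2, 3 and 6 and the PF animal named 11f5. ET replicate 2 and the PF animal 11f6 were left out, as the study did, and 5 libraries of controls fed ad libitum (AD) are given beside the 9. All animals were Long-Evans rats, and hippocampi were collected at 36 to 38 days of age. ET dams drank a liquid diet with 6.7% ethanol from gestational day 0 to 20, PF dams received a liquid diet without ethanol in an amount matched to an ET dam, and AD dams ate standard chow freely. All dams ate chow from gestational day 20. Offspring of each diet came from 1 litter, so diet and litter cannot be told apart, and each p-value below measures the spread between littermates. The 4 ET libraries (2 females and 2 males) were left hippocampi, while PF replicates 1 and 6 were right hippocampi and the other 3 PF libraries (3 females and 2 males in all) were left.

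Pair-feeding is the usual control for a liquid ethanol diet, because it matches calories and the restricted feeding schedule. Among the cells of the hippocampus, oligodendrocytes wrap axons in myelin, and in rats they differentiate and myelinate through adolescence. Myelin genes are switched on together by the transcription factors SOX10, OLIG2 and MYRF, so their transcripts usually move as a group. In bulk tissue, fewer cells of a type and less RNA per cell cannot be told apart.

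Between 13018502 and 15156341 fragments were counted in the 9 libraries, as averages over 3 technical replicates. Levels are given as CPM (fragment counts scaled to the total of the library), and a gene at 5 CPM stood at 65.1 to 75.8 of these averaged fragments in a library. Of 16068 genes tested, 11989 had a mean of 5 CPM or more in both groups, and their median log2 fold change (ET over PF) was 0.01, with the middle 50% between -0.06 and 0.08. Summed choroid plexus and ependyma markers (10 genes, among them the transthyretin gene Ttr) reached 9638 to 11004 CPM in the 3 libraries that the study left out. In the 9 libraries compared they were at 1588 in ET replicate 1, 1754 in PF replicate 2 and 255 to 488 in the other 7. Their part in the differences below was not tested beyond leaving each library out.

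Genes higher in ET were few, and their differences were small. At an adjusted p-value below 0.05, 58 of the 11989 genes were higher in ET (0.484%) and 124 were lower (1.03%). The count of higher genes depended on the fit, with 137 (1.14%) under DESeq2 and 158 (1.32%) with the left-out libraries included. With left hippocampi only 20 of the 58 kept their call, and the count moved both ways when 1 library was left out, as given at the end. The 58 differed by log2 fold changes of 0.25 to 1.81 (median 0.47), and 56 of them by less than 1. In 53 of the 58, every ET library was above every PF library, while 159 of all 11989 genes (1.33%) were separated in that way. All 124 lower genes had every ET library below every PF library, as had 265 of all genes (2.21%). Transcripts that share positions with another gene made up 75% of the 124 lower genes but 46.6% of the 58 higher ones. Among the 6557 genes with no overlapping gene, 30 were higher (0.458%) and 25 lower (0.381%). Among the 5268 overlapping genes, 27 were higher (0.513%) and 93 lower (1.77%). With genes that lay within 1000 bases of another also set aside, 25 of 4206 were higher (0.594%) and 13 lower (0.309%). Of 164 genes with no match in the gene table, 1 was higher (0.61%) and 6 were lower (3.66%). Most lower genes thus lay among overlapping ones.

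**Figure D1:**
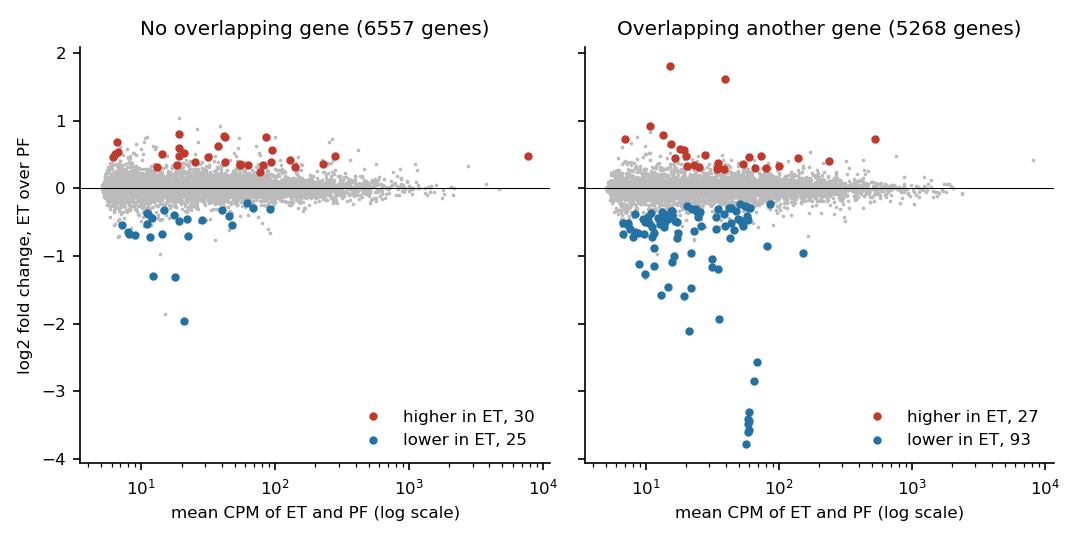
Log2 fold change of ET over PF (vertical axis) against mean CPM of ET and PF on a log scale (horizontal axis) for genes of 5 CPM or more, without (left) and with (right) an overlapping gene. Red points were higher and blue points lower in ET at an adjusted p-value below 0.05, and grey points were not called. The 30 red points on the left lie below a log2 fold change of 1, and the largest falls, beyond -3, are on the right.

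The left-out ET and PF libraries mostly showed the same directions. Of the 58 higher genes, 56 (96.6%) had more CPM in ET replicate 2 than in PF animal 11f6, against 49.5% of all 11989 genes. The median log2 ratio of these libraries was 0.47 over the 58 genes and -0.00 over all 11989. Of the 124 lower genes, 122 were not higher in ET replicate 2. Both libraries were among those rich in choroid plexus markers and came from the same litters, so they add animals but no further litter.

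Oligodendrocyte markers lay above 0 in ET as a group, although few of them passed the threshold singly. Of 10 oligodendrocyte markers listed for checking the tissue, 9 were above 0 in log2 fold change and all 10 exceeded 5 CPM. The median of the list was 0.40, against 0.01 over all genes at that level. Of the 10, 9 passed an unadjusted p-value of 0.05 in the direction of ET, compared with 4.5% of all 11989 genes, and 2 of the 10, Ermn among them, passed at an adjusted p-value below 0.05. The summed level of the 10 was 25217 ± 3483 CPM (SD, n = 4) in ET, 18897 ± 1861 (n = 5) in PF and 23274 ± 3259 (n = 5) in AD, a ratio of 1.33 for ET over PF. That ratio was 1.44 among females and 1.21 among males.

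By library, the summed level was 28941 CPM in ET replicate 1, 22975 in replicate 3, 21612 in replicate 4 and 27339 in replicate 5. In PF it was 16273 in replicate 1, 18950 in replicate 2, 18872 in replicate 3, 18853 in animal 11f5 and 21536 in replicate 6. The ET and PF libraries did not overlap, but the lowest of ET and the highest of PF lay next to each other. AD libraries ranged from 18452 to 26756 CPM, across most of the span of both other groups.

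Ermn, whose product ermin sits in the outer layers of the myelin sheath, stood at 95.3 to 121 CPM in ET and 68.9 to 90.9 in PF (log2 fold change 0.39 ± 0.09, where ± gives the SE, and adjusted p = 0.048). Every ET library was above every PF library. The call held in 1 of the 9 fits that left 1 library out, and without ET replicate 5 the adjusted p-value was 0.16.

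The remaining structural genes differed by like amounts without passing the threshold across all genes. Mal, encoding a proteolipid of myelin trafficking, was at 744.5 to 1102 CPM in ET and 550.5 to 728.5 in PF, again without overlap (log2 fold change 0.48, adjusted p = 0.065). Mobp, a myelin basic protein relative, was at 2698 to 3554 CPM in ET and 2120 to 2654 in PF (0.34, adjusted p = 0.10). Mbp itself (0.41), the adhesion molecule gene Mag (0.42), Opalin (0.42), the tight junction gene Cldn11 (0.37) and the phosphodiesterase gene Cnp (0.37) had adjusted p-values of 0.093 to 0.22, and for these at least 1 PF library lay within the ET range. Mog, encoding myelin oligodendrocyte glycoprotein, was the exception, at 80.6 to 107 CPM in ET and 80.8 to 107 in PF (log2 fold change -0.07 ± 0.11). Mog overlaps Zfp57 in the gene table used, and fragments of either gene may count for both. The same limit holds for every overlapping marker, 4 of the 10 with Mog among them. The median of the 6 markers without an overlapping gene was 0.38.

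**Figure D2:**
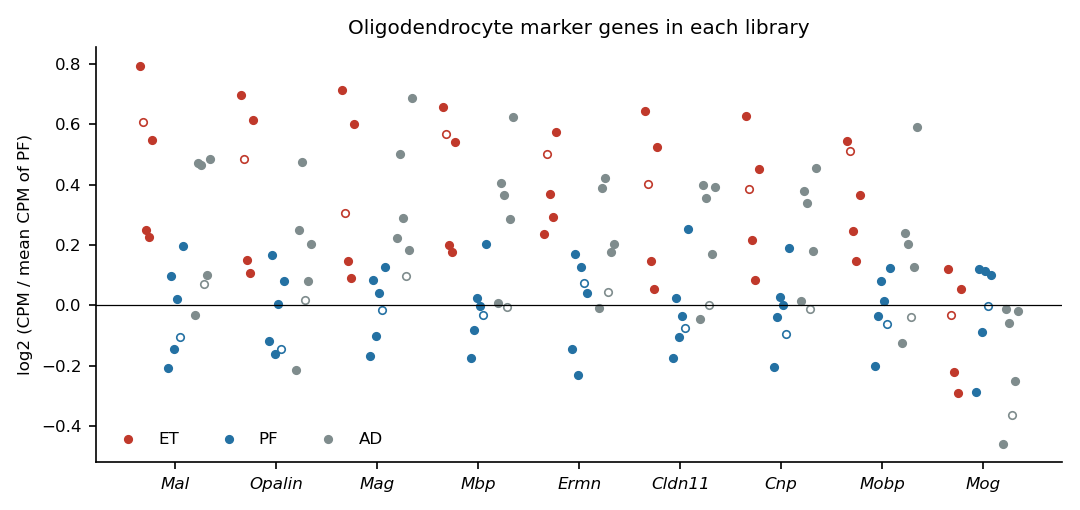
Log2 ratio of each library's CPM to the PF mean (vertical axis) for 9 of the 10 oligodendrocyte markers (horizontal axis), with 1 point per library in ET (red), PF (blue) and AD (grey). Open points are libraries left out of the tests. Red points lie above most blue points for every gene but Mog, and grey points spread over both.

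The letters upstream of the start of these genes were also searched. RefSeq promoters of the assembly GRCr8 were at hand for 7 of the 10 markers, and the 250 bases before the start were read on both strands for CTGGCAC and CTGGTAC, forms of the core motif of MYRF, and for ACAAAG and ACAATG, forms of the SOX motif. A MYRF form stood in 5 of the 7 promoters (71.4%), against 5.4% of 27457 promoters of the same length, and a SOX form in 4 of the 7 (57.1%), against 24.8%. Of 5 precursor promoters, 1 held a MYRF form and 1 a SOX form (20.0% each), and of 12 promoters of the named higher genes without an overlapping gene, 0 held a MYRF form and 1 a SOX form (8.3%). A match describes letters and not a site that is used. The 5 promoters with a MYRF form are shown as the sequences behind that share, although none of their genes passed the adjusted threshold, with the matched letters in capitals, written 5′ to 3′ on the strand of the gene.
Mag, chr1:95291045-95291294 (- strand): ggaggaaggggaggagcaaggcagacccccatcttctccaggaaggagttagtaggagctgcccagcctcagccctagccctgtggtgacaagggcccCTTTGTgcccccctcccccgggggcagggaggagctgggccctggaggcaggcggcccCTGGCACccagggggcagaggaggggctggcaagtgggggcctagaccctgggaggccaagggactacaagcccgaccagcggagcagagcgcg
Cnp, chr10:86011254-86011503 (+ strand): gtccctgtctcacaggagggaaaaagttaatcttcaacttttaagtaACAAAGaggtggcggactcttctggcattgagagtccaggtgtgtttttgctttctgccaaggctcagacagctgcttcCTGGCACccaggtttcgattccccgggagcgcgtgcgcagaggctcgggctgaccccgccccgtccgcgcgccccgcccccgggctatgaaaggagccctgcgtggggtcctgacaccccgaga
Cldn11, chr2:114149540-114149789 (- strand): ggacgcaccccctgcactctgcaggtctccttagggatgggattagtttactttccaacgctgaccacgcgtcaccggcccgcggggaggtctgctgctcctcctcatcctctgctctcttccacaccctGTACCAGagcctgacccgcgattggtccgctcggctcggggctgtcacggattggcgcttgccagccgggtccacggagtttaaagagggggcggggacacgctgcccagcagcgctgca
Opalin, chr1:249858191-249858440 (- strand): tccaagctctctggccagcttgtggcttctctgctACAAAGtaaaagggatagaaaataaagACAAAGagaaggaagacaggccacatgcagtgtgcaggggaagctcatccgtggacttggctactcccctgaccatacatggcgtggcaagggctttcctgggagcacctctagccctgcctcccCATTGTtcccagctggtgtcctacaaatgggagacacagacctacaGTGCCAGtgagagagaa
Mal, chr3:135341424-135341673 (- strand): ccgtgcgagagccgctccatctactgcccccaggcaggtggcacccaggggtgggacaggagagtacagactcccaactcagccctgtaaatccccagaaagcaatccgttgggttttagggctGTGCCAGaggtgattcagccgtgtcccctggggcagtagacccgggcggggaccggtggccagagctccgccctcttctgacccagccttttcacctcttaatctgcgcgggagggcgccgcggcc
In Opalin the MYRF form began 17 bases before the start, and in the other 4 promoters between 94 and 126 bases before it. Of 15 further oligodendrocyte promoters at hand, from the textbook list described next, 1 held a MYRF form (6.7%) and 3 a SOX form (20.0%), close to the shares over all promoters.

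A second list of 20 textbook oligodendrocyte genes, added after values of these data were seen, moved likewise. It was measured in the same libraries, so it is no independent test of the first list. All 20 had a log2 fold change above 0, from 0.14 for Carns1 to 0.51 for the connexin gene Gjb1, with a median of 0.38. An unadjusted p-value below 0.05 was reached by 17 of the 20 (4.5% of all genes), and 3 of the 20 passed the adjusted threshold. Those 3 were Myrf, the regulator named above (log2 fold change 0.32 ± 0.08, adjusted p = 0.048), Aspa, which encodes the enzyme that frees acetate from N-acetylaspartate (0.38 ± 0.09, adjusted p = 0.048), and Tmem125, a membrane protein gene (0.48 ± 0.11, adjusted p = 0.046). Myrf was at 170, 154, 133 and 172 CPM in ET replicates 1, 3, 4 and 5 and at 120 to 134 in PF, where animal 11f5 exceeded the lowest ET library. Hapln2, Carns1 and the transcription factor gene Nkx6-2 were the members that did not reach an unadjusted p-value of 0.05. Leaving out ET replicate 5 gave the largest adjusted p-values for Myrf, Aspa and Tmem125, 0.15 to 0.17.

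Precursor markers had a smaller median. Over 8 oligodendrocyte precursor markers the median log2 fold change was 0.24, 5 had an unadjusted p-value below 0.05 in the direction of ET and 0 passed the adjusted threshold (0.484% of all genes did). Pdgfra, the growth factor receptor of precursors (-0.02 ± 0.10), and Cspg4, which encodes the NG2 proteoglycan (-0.10 ± 0.10), were at or below 0. Enpp6, a mark of newly formed oligodendrocytes, was at 37.4 to 48.4 CPM in ET and 23.8 to 42.7 in PF (log2 fold change 0.49 ± 0.15, adjusted p = 0.14). Sox10 (0.28), Olig2 (0.32) and Olig1 (0.35), transcription factors kept through the whole lineage, had adjusted p-values of 0.25 to 0.27. Leaving out ET replicate 5 left 1 of the 8 at an unadjusted p-value below 0.05.

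The size of the difference varied less than its calls. With sex as a covariate, 0 of the 10 markers and 0 of the 20 further genes passed the adjusted threshold, and when each library was left out 0 to 4 of the 10 and 0 to 8 of the 20 did. With DESeq2 these counts were 7 of 10 and 10 of 20, where 1.14% of all genes were called higher in ET. With the left-out libraries included they were 7 and 13, where 1.32% were. With sex as a covariate, 9 of the 10 and 17 of the 20 had an unadjusted p-value below 0.05. The median of the 10 oligodendrocyte markers lay between 0.32 and 0.47 when each library was left out in turn and was 0.41 with left hippocampi only. Between ET replicate 2 and PF animal 11f6, the median log2 ratio was 0.53, with 9 of the 10 higher in ET. Against AD, the median log2 fold change was 0.10 for ET and -0.28 for PF, beside 0.001 and -0.01 over all 11989 genes. At an unadjusted p-value below 0.05, 0 of the 10 were higher in ET than in AD (1.37% of all genes) and 7 were lower in PF than in AD (7.61% of all genes). Both comparisons use the same AD libraries, and the AD mean lay between ET and PF for 9 of the 10.

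Lists of blood and of thalamus markers also had medians above 0, and they are given beside the oligodendrocyte genes because they mark tissue that a dissected hippocampus can carry. For blood, the median over 5 genes of 5 CPM or more was 0.75, and all 5 had an unadjusted p-value below 0.05. Summed blood markers (8 genes) were at 711 to 1012 CPM in ET, 314 to 719 in PF and 740 to 1042 in AD. The haemoglobin gene Hbb-b1 was at 59.0, 52.6, 43.6 and 53.4 CPM in ET replicates 1, 3, 4 and 5 and at 21.6 to 41.6 in PF, and passed the threshold (log2 fold change 0.78 ± 0.17, adjusted p = 0.025). That call held in 4 of the 9 fits that left a library out (adjusted p = 0.079 without PF replicate 2) and was lost with left hippocampi only (0.094) and with the left-out libraries included (0.064). In AD it was at 39.5 to 60.5 CPM, and PF was lower than AD (log2 fold change -0.75, adjusted p = 0.019).

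For thalamus and habenula, the median over 7 genes was 0.61, with 3 at an unadjusted p-value below 0.05 and 0 past the adjusted threshold. The median was 0.37 without ET replicate 3, the lowest value when each library was left out, and 0.49 with all ET and PF libraries. Summed over the 12 genes listed, levels were 125, 212, 111 and 143 CPM in ET replicates 1, 3, 4 and 5, 72.8 to 116 in PF and 113 to 127 in AD, and the left-out ET and PF libraries were at 194 and 195. ET replicate 3 was the high library, with Prkcd at 52.1 CPM (15.6 to 18.4 in the other ET libraries) and the thalamic transcription factor gene Shox2 at 7.21 (0.154 to 1.90). The defining habenular and thalamic genes Pou4f1 and Gbx2 were under 1 CPM in each library. In summed oligodendrocyte markers ET replicate 3 lay between replicates 4 and 5, and ET replicate 4 was the lowest ET library in both lists. Without ET replicate 3 the oligodendrocyte median was 0.44, and the part of blood or adjoining tissue in it was not tested.

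**Figure D3:**
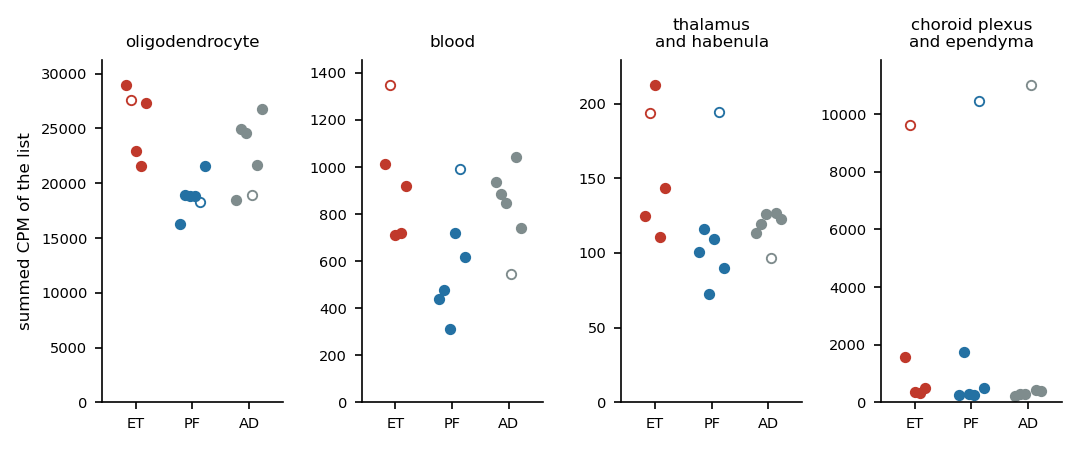
Summed CPM of 4 marker lists (vertical axes, from 0) in each library by diet, with open points for libraries left out of the tests. For oligodendrocyte genes the 4 filled ET points lie between 21612 and 28941 and the 5 PF points between 16273 and 21536, while for thalamus 1 ET point stands at 212.

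Among single higher genes of 5 CPM or more without an overlapping gene, Retsat and Padi2 had the smallest p-values. Padi2 encodes a peptidylarginine deiminase that converts arginine of myelin basic protein to citrulline, and it was at 102, 125.5, 96.2 and 107 CPM in ET against 74.4, 62.6, 53.4, 63.5 and 66.5 in PF (log2 fold change 0.76 ± 0.10, adjusted p = 8e-04). AD libraries were at 86.7 to 152, and PF was below AD (adjusted p = 0.0038). Retsat, which encodes retinol saturase, was at 54.5, 46.4, 62.8 and 46.5 CPM in ET and 29.2 to 33.1 in PF (0.76 ± 0.09, adjusted p = 4e-04), and it has another gene within 1000 bases. For both genes every ET library was above every PF library, and the call held in each of the 9 fits that left a library out.

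Several of the other genes of this group are also known from oligodendrocytes, an observation made after their values were seen. Serinc5, a serine incorporator, stood at 297 to 352 CPM in ET and 220 to 247 in PF (0.47 ± 0.07, adjusted p = 0.0015). Ndrg1 was at 131 to 159 CPM in ET and 104 to 118 in PF (0.42 ± 0.06, adjusted p = 0.0013), and Gpr37, an orphan receptor of myelinating cells, at 224 to 272 and 189 to 211 (0.36 ± 0.07, adjusted p = 0.013). Tppp3, of a tubulin-binding family, was at 38.2 to 56.4 CPM in ET and 25.9 to 31.9 in PF (0.63 ± 0.11, adjusted p = 0.0062). In these 4 genes no PF library reached the lowest ET library. Fa2h, the fatty acid 2-hydroxylase of myelin lipids (0.57, adjusted p = 0.018), and the transferrin gene Tf (0.73, adjusted p = 0.010), which overlaps another gene, were among the 58 as well.

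Other genes named by the rule follow. Gpnmb, a glycoprotein gene of microglia and macrophages, was at 15.7 to 17.6 CPM in ET and 10.1 to 12.9 in PF (0.51 ± 0.09, adjusted p = 0.0050). The 12 microglial markers had a median of 0.005. Fzd10, a Wnt receptor gene, was at 33.6 to 39.4 CPM in ET and 22.3 to 31.3 in PF (0.47 ± 0.09, adjusted p = 0.013), and Unc5b, a netrin receptor gene, at 80.2 to 97.4 and 64.3 to 79.5 (0.34 ± 0.07, adjusted p = 0.014). Slc45a3, Niban1, Trim59, Sec11c and Ube2s had log2 fold changes of 0.25 to 0.68 and adjusted p-values of 0.0087 to 0.016. The calls of Gpr37, Fzd10, Unc5b, Sec11c and Ube2s were lost in 1 to 3 of the 9 fits that left a library out, and those of the other 9 described here in none. With left hippocampi only, the calls of Gpnmb, Slc45a3, Trim59, Gpr37 and Unc5b were lost (adjusted p = 0.053 to 0.095).

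Where the AD animals stood differed between genes. For 26 of the 30 non-overlapping higher genes the AD mean lay between ET and PF, and for 20 it was nearer to ET. The 30 were picked for a gap between ET and PF, and the same shares over all genes were not computed. At an adjusted p-value below 0.05, 0 of 15749 genes were higher in ET than in AD and 2 were lower (0.0127%), whereas 690 of 15960 were higher (4.32%) and 135 lower (0.846%) in PF than in AD.

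At the study's strict threshold, an adjusted p-value below 0.01 with a log2 fold change above 1.5, 6 genes were higher in ET (0.0373% of 16068) and 343 lower (2.13%). Of the 6, Zfp40 and Zfp458 exceeded 5 CPM in both groups, and Nqo2, Tcam1, Slc39a12 and Tnnt1 did not. Tcam1 and Tnnt1 overlap no other gene. None of the 6 differed between ET and AD at an adjusted p-value below 0.05.

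Nqo2 encodes a quinone reductase that uses dihydronicotinamide riboside as its electron donor. It was at 5.89, 5.56, 4.51 and 6.17 CPM in ET and 1.58, 2.25, 1.35, 1.75 and 1.97 in PF, with AD between them at 3.12 to 4.17 (log2 fold change ET over PF 1.64 ± 0.15, adjusted p = 3.6e-05). In the library left out of PF, animal 11f6, the level was 5.55, within the ET range, and with both left-out libraries included the adjusted p-value was 0.031 and the log2 fold change 1.22. Serpinb6a, the gene that Nqo2 overlaps, was higher in ET as well (0.48, adjusted p = 0.036). Over the 14 listed targets of NRF2, the antioxidant regulator, that reached 5 CPM, which leave out Nqo2, the median was 0.02, 0 passed an unadjusted p-value of 0.05, and Nqo1, the closest relative of Nqo2, differed by -0.01 ± 0.09.

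Tcam1, a cell adhesion gene related to the intercellular adhesion molecules, rested on few fragments. ET libraries held 12 to 26.7 fragments and PF libraries 0.67 to 4.0, averaged over the technical runs. Summed over libraries, these averages came to 81 in ET and 12 in PF, a depth-corrected ratio of 8.23. The 95% interval of 4.47 to 16.6 covers counting error only. It takes the averages as counts, so it is not the interval of all fragments counted. The log2 fold change was 2.88 ± 0.33 (adjusted p = 2.4e-04), and AD libraries, at 1.26 to 2.64 CPM, were higher than PF (adjusted p = 1.6e-05). Tnnt1, the slow muscle troponin T gene that also marks thalamus, was at 1.56 to 3.01 CPM in ET, 0.30 to 0.95 in PF and 1.84 to 3.66 in AD (1.60 ± 0.30, adjusted p = 0.0094). In both genes every PF library was below every ET and AD library of the sets compared. Without ET replicate 4 the count of 6 fell to 2, and only Nqo2 and Tcam1 passed the strict threshold in each of the 9 fits that left a library out.

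The zinc finger gene Zfp40 was at 38.5, 59.5, 91.9 and 48.8 CPM in ET and 16.8 to 21.8 in PF (1.61 ± 0.22, adjusted p = 9.2e-04), with AD at 38.9 to 74.1. Slc39a12, which encodes the zinc importer ZIP12, split each group in which it was high. It stood at 2.59 CPM in ET replicate 1 and 33.1 to 35.8 in the other ET libraries, at 2.29 to 2.89 in PF, and in AD at 16.9 to 19.9 in 3 libraries and 2.4 and 2.49 in replicates 2 and 5. Zfp458, another zinc finger gene, was at 7.96 CPM in ET replicate 3 and 26.2 to 31.3 in the other ET libraries, 6.06 to 7.32 in PF, and 32.7 in AD replicate 3 against 6.30 to 7.33 in the other AD libraries. The levels of Slc39a12 and Zfp458 thus fell into low and high libraries within a litter rather than spreading around a mean. The other zinc transporter genes had a median of 0.03 over 18 members at 5 CPM or more, with 0 past the adjusted threshold.

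**Figure D4:**
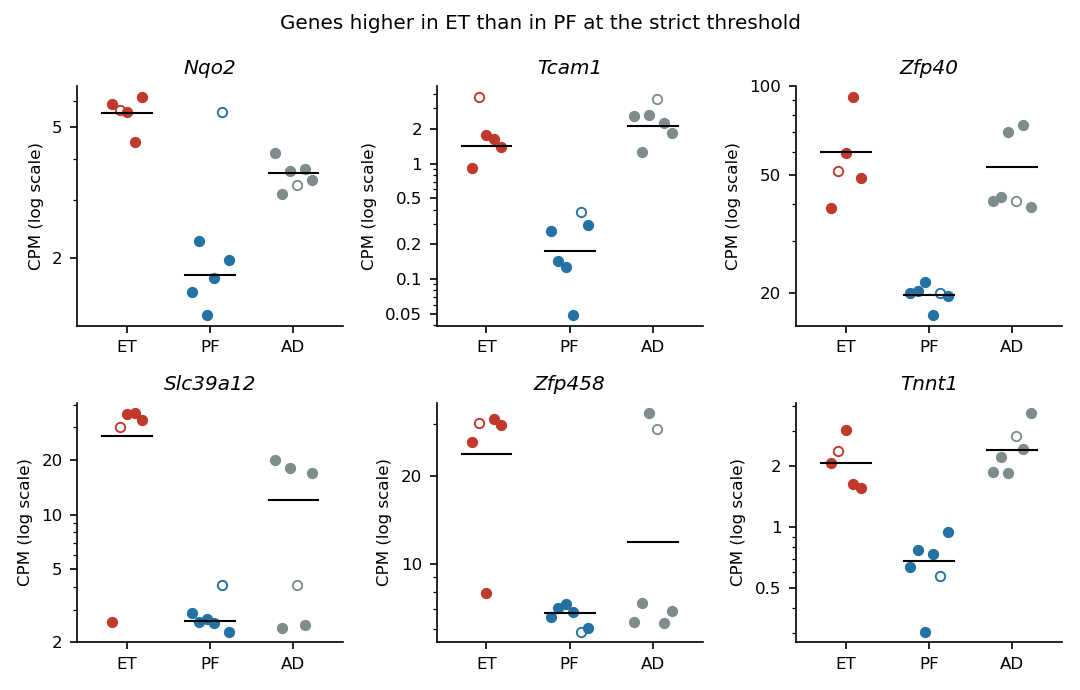
CPM on a log scale (vertical axes) of the 6 genes past the strict threshold, by diet, with 1 point per library, a line at the group mean and open points for libraries left out of the tests. The filled PF points lie at the bottom of each panel, with some AD points beside them for Slc39a12 and Zfp458, the left-out PF point of Nqo2 is at 5.55, and 1 ET point of Slc39a12 (2.59) and 1 of Zfp458 (7.96) lie near the PF level.

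Genes lower in ET without an overlapping gene were mostly genes in which PF stood above both other groups. In 22 of these 25 genes the AD mean was nearer to ET than to PF, and 12 of the 25 had another gene within 1000 bases, against 5 of the 30 higher genes. Of all 6557 non-overlapping genes of 5 CPM or more, 4206 had no gene within 1000 bases. The 25 were picked for a gap between ET and PF, which bears on where AD falls. The share over all genes was not computed for the place of AD. Mettl23, a methyltransferase gene, was at 8.89 to 11.4 CPM in ET, 24.0 to 28.0 in PF and 10.3 to 11.8 in AD (log2 fold change -1.31 ± 0.08, adjusted p = 1.6e-06). Nagk, the N-acetylglucosamine kinase gene (-0.71), Pgap6 (-0.48), Zscan30 (-0.69), Ccdc142 (-0.67), Snapc3 (-0.41), Paip2b (-0.46), the splicing factor gene Srsf2 (-0.55) and Trappc12 (-0.30) were also lower in ET, with PF above AD at an adjusted p-value of 0.010 or less.

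Akr1b10 was the exception among them. This aldo-keto reductase, which reduces reactive aldehydes, was at 9.70, 6.58, 8.84 and 8.63 CPM in ET, 27.3, 52.9, 26.8, 31.5 and 26.3 in PF and 26.3 to 32.2 in AD. ET was lower than PF by a log2 fold change of -1.96 ± 0.22 (adjusted p = 1.9e-04) and lower than AD by -1.81 (adjusted p = 7.9e-05), and the left-out libraries had 6.91 CPM in ET and 24.1 in PF. Of the 10 enzymes of ethanol and acetaldehyde handling listed at 5 CPM or more, Aldh7a1, an aldehyde dehydrogenase of lysine breakdown, was lower in ET (58.1 to 62.8 CPM, against 69.6 to 83.6 in PF, log2 fold change -0.30 ± 0.06, adjusted p = 0.0094) with AD at 57.3 to 69.7. Aldh2 (0.13 ± 0.08), the catalase gene Cat (0.06 ± 0.06) and Adh5 (0.11 ± 0.07) had adjusted p-values of 0.64 to 0.84.

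Of 22 mitochondrial transfer RNA genes, a list added after their values were seen, 7 were lower in ET at an adjusted p-value below 0.05 (3.59% of all 16068 genes tested) and 0 higher, and 17 had 5 CPM or more in both groups. Of these 17, 3 were lower (1.03% of genes at that level), a count that leaves out members below 5 CPM in ET, and their median log2 fold change was -0.02. Trnn was at 5.75 to 6.81 CPM in ET and 19.2 to 28.9 in PF (log2 fold change -1.81 ± 0.14, adjusted p = 7.7e-06), Trnc at means of 8.74 and 31.1, and Trny at 16.8 and 26.3. AD means of the 3 were 6.31, 9.93 and 19.2 CPM. Of the 17, 0 had a match in the gene table, so their overlap with other genes could not be assessed. Trns1 (1044 CPM in ET and 1023 in PF) and Trnm (101 and 99.5) had log2 fold changes of 0.04 and 0.03, with adjusted p-values of 0.98 and 0.99.

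Pathway lists other than those above shifted little. Of 38 lists with a member at 5 CPM or more, 33 had 0 members past the adjusted threshold in either direction. Over all 11989 genes 0.484% were called higher and 1.03% lower, so lists this short would mostly hold 0 calls. The median lay within 0.1 of 0 in 31 lists. It was above 0.2 in 4, the oligodendrocyte, oligodendrocyte precursor, thalamus and blood lists. In the precursor list 6 of 8 genes were above 0, but Pdgfra and Cspg4 were not. Synaptic vesicle release genes (20, median -0.02), postsynaptic scaffold genes (16, -0.03), ionotropic glutamate receptor genes (17, 0.01) and GABA-A receptor genes (15, -0.01) were centred on 0. The members of these lists at an unadjusted p-value below 0.05 were the calcium sensor gene Syt1 (-0.24, adjusted p = 0.33), Rims1 (-0.23, adjusted p = 0.35) and the extrasynaptic receptor subunit gene Gabrd (0.39, adjusted p = 0.36).

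Some lists leaned one way without a call. For the circadian clock, 4 of 16 genes were above 0 and the median was -0.08, with Per2 (36.8 CPM in ET and 42.6 in PF, adjusted p = 0.24), Per1 (40.6 and 51.2, adjusted p = 0.33) and Nr1d1 (75.5 and 91.5, adjusted p = 0.35) below an unadjusted p-value of 0.05. For cholesterol synthesis, 20 of 23 were above 0 but with a median of 0.05. Nuclear genes of oxidative phosphorylation were above 0 in 54 of 73 (median 0.04), but their median turned to -0.04 without ET replicate 1 and was 0.11 without ET replicate 3. For the unfolded protein response, 15 of 17 were above 0 (median 0.06). Over all 11989 genes 54.8% were above 0, so a share above 0 is best read beside that figure, and list members are not independent.

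Growth factor, Wnt and retinoid lists held single members with larger fold changes that missed the threshold. Igfbp2, an IGF-binding protein gene, was at a mean of 63.1 CPM in ET and 42.0 in PF (0.60, adjusted p = 0.36) and Igf2 at 203 and 140 (0.54, adjusted p = 0.43). The secreted Wnt inhibitor gene Sfrp2 (0.53, adjusted p = 0.11) and Cyp26b1, whose product breaks down retinoic acid (0.49, adjusted p = 0.11), were alike in size. Cntn2, an adhesion molecule gene of myelinated axons, was the member of 34 adhesion genes with the smallest p-value (0.27, adjusted p = 0.10). Astrocyte (median 0.03), endothelial (-0.04), interneuron (-0.01) and microglial lists lay near 0, and the astrocyte gene Gfap was at 932 ± 98.1 CPM (SD, n = 4) in ET and 771 ± 65.9 (n = 5) in PF (0.28, adjusted p = 0.16).

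**Figure D5:**
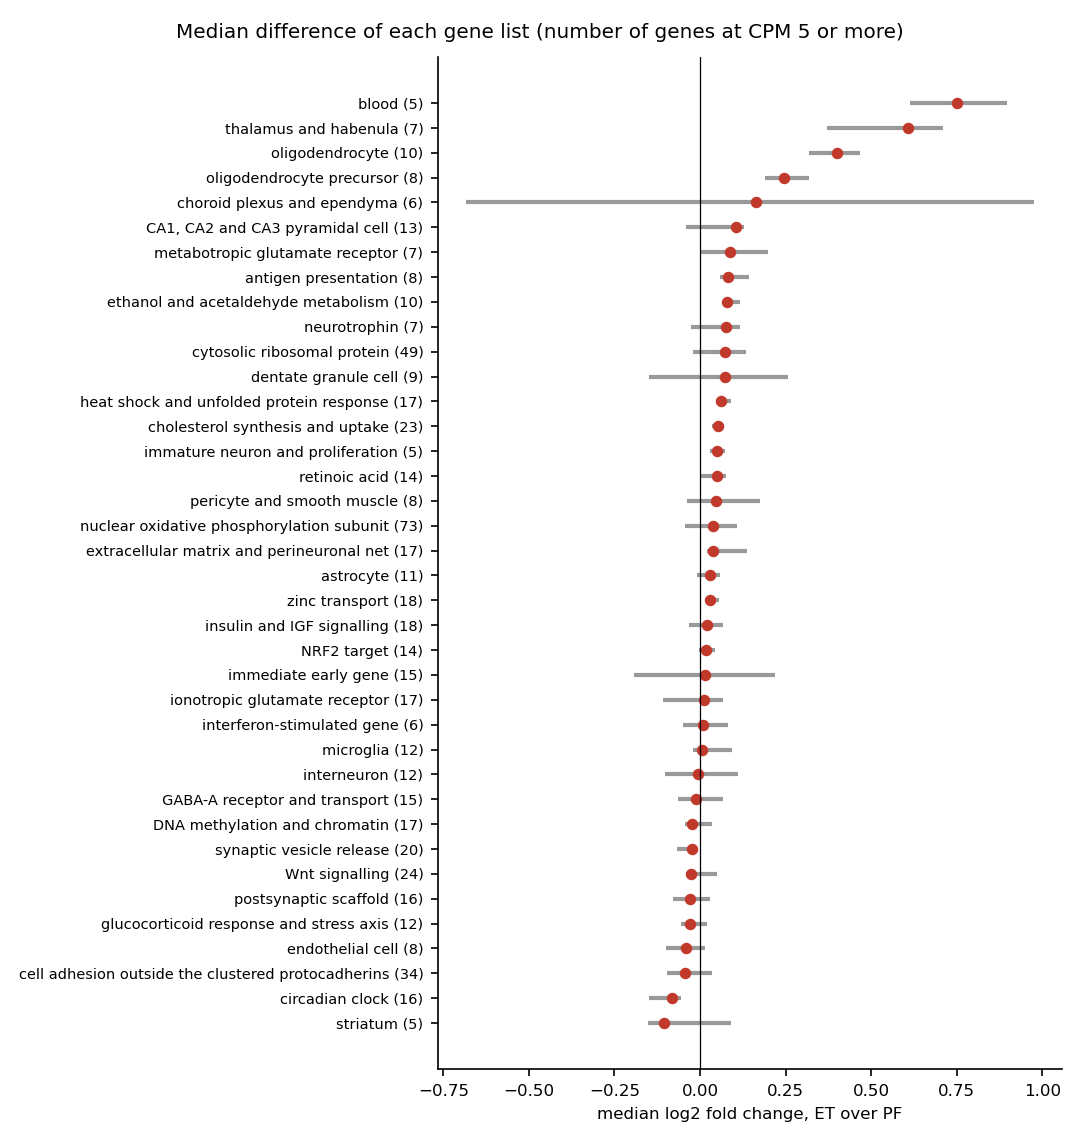
Median log2 fold change of ET over PF (horizontal axis) for the genes of each list at 5 CPM or more, with their number in brackets. Grey bars span the medians when each of the 9 libraries was left out in turn. The blood (0.75), thalamus (0.61), oligodendrocyte (0.40) and precursor (0.24) lists stand apart from the lists around 0, and the choroid plexus bar is the widest.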

How the data were processed

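RNA from frozen hippocampi of 17 offspring was sequenced. Per the submitters' processing notes, Bowtie2 2.4.2 and featureCounts 2.0.1 were used, and the study's methods give the assembly mRatBN7.2 and a minimum mapping quality of 10; the strand setting is not given in the sources used here. The deposited values are estimated counts, since the authors averaged the fragments per gene over 3 technical replicates, and they were rounded to whole numbers here.

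Library factors (TMM), the default expression filter, the quasi-likelihood test and Benjamini-Hochberg adjustment of edgeR 4.0.16 in R 4.3.3 were applied to the 9 ET and PF libraries together, and separately to each group with AD. All gene p-values come from this test. CPM 5 or more in both groups was required after the test. With 1 litter per group, p-values measure the spread between animals of a litter. DESeq2 1.42.0, other scalings, sample sets, covariates and filters were alternatives, and the models were tested on simulated data. Python 3.11.15, numpy 2.4.6, pandas 2.3.3 and matplotlib 3.10.9 made summaries and plots.

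Genes were called overlapping from the RefSeq table of GRCr8, a different assembly, in which 30769 of 34322 symbols (89.6%) were found. Named genes were all those higher in ET past the strict threshold, and up to 15 higher and 10 lower non-overlapping genes of 5 CPM or more by p. In each of 39 lists, up to 6 members past adjusted p 0.05 or otherwise up to 3 by p were named, with markers that bear on them. Others named were chosen after their values were seen. The list of mitochondrially encoded genes matched 0 symbols. The members and lists were chosen with earlier results of these data known, and the further oligodendrocyte and transfer RNA lists were added after values were seen. The libraries of the PF animals 11f5 and 11f6 could be matched to the group but not to a replicate number. Library pairs of the same group differed by a chi-square per gene of at least 13.33, so none was counted as a duplicate. A few genes that the rule names are not reported here.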

Additional observations from a re-analysis of the deposited data

Results flagged for a closer look

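In 5 of 86 groups of 4 or 5 libraries tested, the highest or lowest library stood apart from the rest by Dixon's 95% limit, where chance gives about 5%. Slc39a12 was at 2.59 CPM in ET replicate 1, against 33.11 to 35.78 in the other ET libraries. Zfp458 was at 7.96 CPM in ET replicate 3, against 26.19 to 31.33 in the others. Akr1b10 was at 52.9 CPM in PF replicate 2, against 26.3 to 31.52 in the other PF libraries. The transfer RNA genes Trnn, at 28.91 CPM, and Trnc, at 49.61, were highest in PF replicate 6, where the other PF libraries were at 19.22 to 21.27 and 24.68 to 27.25.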

How the results depend on the processing

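Of 40 named genes past a threshold, 0 changed sign in the alternatives that gave them a value (33 of them without overlapping genes), 12 lost their call in at least 1 fit that left a library out, 17 with left hippocampi only and 6 with sex as a covariate. Among listed genes past none, 2 changed sign with left hippocampi only, 11 under the replicate block and 6 when a library was left out. The 58 higher genes became 117 in 1 fit of the 3 diets, 137 with DESeq2 (all 58 kept), 158 with all ET and PF samples (50 kept), 32 with left hippocampi only (20 kept), 20 without overlapping genes and 15 also without neighbours, a choice made after seeing the data. Leaving out 1 library gave 22 (ET replicate 5) to 91 (ET replicate 4), with 30 without PF replicate 1, 25 without PF replicate 2, 36 without PF replicate 3 and 35 without animal 11f5. The 124 lower genes became 26 and 16 without overlapping genes and neighbours, 254 at 1 CPM and 78 at 10 CPM. The 6 strict higher genes became 2 with left hippocampi only, 3 with sex as a covariate, 10 with sums of technical replicates, and 1 without overlapping genes and 1 also without neighbours, and 2 (without ET replicate 4) to 6 when a library was left out, with 3 without ET replicate 5 or PF replicates 1, 3 or 6. The 343 strict lower genes became 115 and 92 without overlapping genes and neighbours. ET and PF are known to share replicate numbers 1 and 3, which name different animals (correlations of deviations 0.09 and 0.71), and animal 11f5 is replicate 4 or 5 and was left out of this fit, so the replicate block is no pairing; over the 8 numbered samples it gave 27 higher (7 of the 58 kept) and 40 lower genes of 5 CPM or more (34 of the 124 kept), 3 strict higher and 194 strict lower. The cause of these changes was not tested. Of the 6 strict higher genes, Tcam1 and Tnnt1 had the lowest mean CPM in ET and in PF.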
